A study of Mus musculus with 25 samples.

Results

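Transcripts of 7 genes that are typical of mast cells (Mcpt4, Cma1, Cpa3, Tpsb2, Mrgprb1, Gata2 and Kit) were followed through RNA sequencing libraries of sorted mouse skin cells. The genes were chosen by name, after their normalised values in these skin libraries were known, so their skin values are given as a description without a test. All 7 were found among the 12661 genes of the skin table, and 1 of them, Cpa3, among the 11867 genes of the lung table; the other 6 were not analysed in lung. The study asked how the loss of neutrophils changes macrophages and fibroblasts of the lung and the skin.

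Depleted mice carried Mrp8_CRE and Rosa26_DTR, in which Cre under the promoter of a neutrophil gene (S100a8, also called Mrp8) switches on a diphtheria toxin receptor and so sensitises the cells that have used that promoter. Control mice were labelled Mrp8_WT and Rosa26_DTR and had no Cre. Every mouse, controls included, was C57BL/6 and had diphtheria toxin intraperitoneally for 7 days (10 µg/kg). Skin gave 4 depleted and 3 control macrophage libraries (gated CD45+ CD11b+ CD68+ F4/80+) and 3 depleted and 3 control fibroblast libraries (gated CD45- CD31- EPCAM- CD90.1+ PDGFRA+). Lung gave 3 libraries in each of the same 4 groups. Ages were not given, and the labels do not say which libraries came from separate mice, so p-values measure the spread between these samples.

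Two-sided p-values below come from limma. Skin libraries held 6553115 to 27259903 estimated reads and lung libraries 124075 to 385925. The normalised values are linear and not corrected for gene length, and 1 read was worth 0.0371 to 0.162 units in a skin library. Genes with 0 reads carry the lowest value of their library, and 3 reads, the limit that 0 reads allow, corresponded to 0.111 to 0.485 units. Before any result, 2 of the 3 libraries labelled as control skin macrophages went against their label. Ptprc, which encodes CD45, stood at 522 to 878 units in the 4 depleted macrophage libraries and at 362 in control macrophage library 3. It stood at 0.277 and 0.209 in the libraries labelled control macrophages 1 and 5. Col1a1, the main fibrillar collagen chain, was 15309 and 28883 in those libraries, against 61.2 to 241 in the depleted macrophage libraries and 267 in control library 3. The title of library 5 also carries a fibroblast tag. Control macrophage library 3 was therefore the 1 control library with a macrophage profile, and a comparison with it has no replicate on the control side.

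Mast cells are tissue-resident granulocytes that depend on stem cell factor acting through the receptor tyrosine kinase Kit. Those of mouse skin are of the connective tissue type, and store chymases, tryptases, carboxypeptidase A3, heparin and histamine in granules that are released on stimulation, classically through the Fc epsilon receptor. Among the members, Mcpt4 and Cma1 encode chymases, Tpsb2 a tryptase and Cpa3 the mast cell carboxypeptidase. Mrgprb1 encodes a Mas-related G protein-coupled receptor, a relative of the mast cell secretagogue receptor Mrgprb2, and Gata2 encodes a zinc finger factor needed for mast cell development. None of these genes is a marker of macrophages or fibroblasts, and neither sort was designed to collect mast cells.

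In GRCm38 coordinates of the GENCODE annotation, Cma1 (chr14:55941451-55944675) and Mcpt4 (chr14:56059629-56062313) lie 115 kb apart on the minus strand of the chymase cluster. Cpa3 occupies chr3:20215620-20242181, Mrgprb1 chr7:48444113-48456342 (both minus strand), Gata2 chr6:88193891-88207032, Kit chr5:75574916-75656722 and Tpsb2 chr17:25366305-25369098 (plus strand). RefSeq promoter entries on GRCm38.p6 were found for 6 of the 7 members (8 entries). The 250 bases before the annotated start were searched on both strands for the GATA words AGATAA or AGATAG or TGATAA or TGATAG, which GATA factors such as Gata2 recognise. The stretches of 4 genes are shown because they belong to the members with a GATA word. These same members were high together in the libraries numbered 3, as described further on, but Tpsb2 had no entry to search. Gata2 itself had 0 reads in control fibroblast library 3, and a link between the words and the levels was not tested. The stretches run 5′ to 3′ on the strand of the gene, with the words on either strand in capitals.
Mcpt4: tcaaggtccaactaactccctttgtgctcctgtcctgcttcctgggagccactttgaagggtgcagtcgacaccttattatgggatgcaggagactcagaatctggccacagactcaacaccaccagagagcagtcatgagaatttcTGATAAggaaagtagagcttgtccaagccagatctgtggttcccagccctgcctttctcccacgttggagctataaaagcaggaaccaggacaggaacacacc
Cma1: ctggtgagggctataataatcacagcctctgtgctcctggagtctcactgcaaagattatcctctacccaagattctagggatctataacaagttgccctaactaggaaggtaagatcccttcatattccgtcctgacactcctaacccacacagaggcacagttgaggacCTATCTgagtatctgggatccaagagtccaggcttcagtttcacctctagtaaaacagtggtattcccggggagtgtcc
Cpa3: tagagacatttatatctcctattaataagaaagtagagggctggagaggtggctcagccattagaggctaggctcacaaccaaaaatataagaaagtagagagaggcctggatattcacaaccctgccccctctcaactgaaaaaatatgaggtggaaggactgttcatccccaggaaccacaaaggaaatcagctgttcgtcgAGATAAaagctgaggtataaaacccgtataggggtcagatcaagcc
Mrgprb1: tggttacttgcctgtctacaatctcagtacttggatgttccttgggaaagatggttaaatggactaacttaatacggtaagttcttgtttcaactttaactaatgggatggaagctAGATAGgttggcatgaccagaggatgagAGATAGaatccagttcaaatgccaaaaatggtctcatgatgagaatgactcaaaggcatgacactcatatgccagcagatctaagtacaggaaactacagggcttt
They cover chr14:56062311-56062560, chr14:55944676-55944925, chr3:20242182-20242431 and chr7:48456343-48456592, all on the minus strand. The word of Mcpt4 begins 103 bases before the start, that of Cma1 79 bases, that of Cpa3 46 bases, and those of Mrgprb1 134 and 106 bases before it. The entries of Gata2 and Kit held no such word in these windows, and 26.5% of all 32851 promoter entries did. The E-box words CATGTG and CACGTG, read by Mitf and related factors, were in 0 of the members' 8 entries and in 17.6% of all entries. These matches describe the letters and do not show binding.

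The chymase Cma1 had 24.0, 22.5, 34.1 and 1.13 units in depleted macrophage libraries 1, 2, 3 and 5, against 132 in control macrophage library 3. The libraries labelled control macrophages 1 and 5 had 2.32 units and 0 reads. Control library 3 was the highest, depleted libraries 1 to 3 were close to each other, and depleted library 5 was far below them. Cpa3 had 43.0, 34.2, 42.7 and 1.13 units in depleted libraries 1, 2, 3 and 5 and 135 in control library 3, with 1.47 and 0.0696 in control libraries 1 and 5. Control library 3 was again the highest and depleted library 5 again the lowest of the depleted ones. In units, control library 3 was 3.89-fold above the highest depleted library for Cma1 and 3.15-fold for Cpa3. In bulk libraries such as these, fewer mast cells and less RNA per mast cell cannot be told apart.

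Mcpt4, the chymase typical of connective tissue mast cells, had 0 reads, 6.03, 6.29 and 0.572 units in depleted macrophage libraries 1, 2, 3 and 5. It had 57.8 units in control library 3, which was 9.20-fold above the highest depleted library, and 9.64 units and 0 reads in control libraries 1 and 5. Tpsb2 had 0 reads, 31.9, 24.0 and 0.376 units in the depleted libraries, against 53.1 in control library 3 and 21.2 and 3.09 in control libraries 1 and 5. The 2 proteases were thus at 0 reads in depleted library 1, the shallowest of the skin libraries, which nonetheless held 148 reads of Cma1 and 265 of Cpa3. For Tpsb2 control library 3 was 1.66-fold above the highest depleted library, so this gene separated them the least of the 4 proteases. A 61-base read from Mcpt4 could also come from Cma2 at 3.82% of its positions, and one from Cma1 from Gm48934 at 3.30%, while none of the positions in the other 5 members is shared with another gene.

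**Figure D1:**
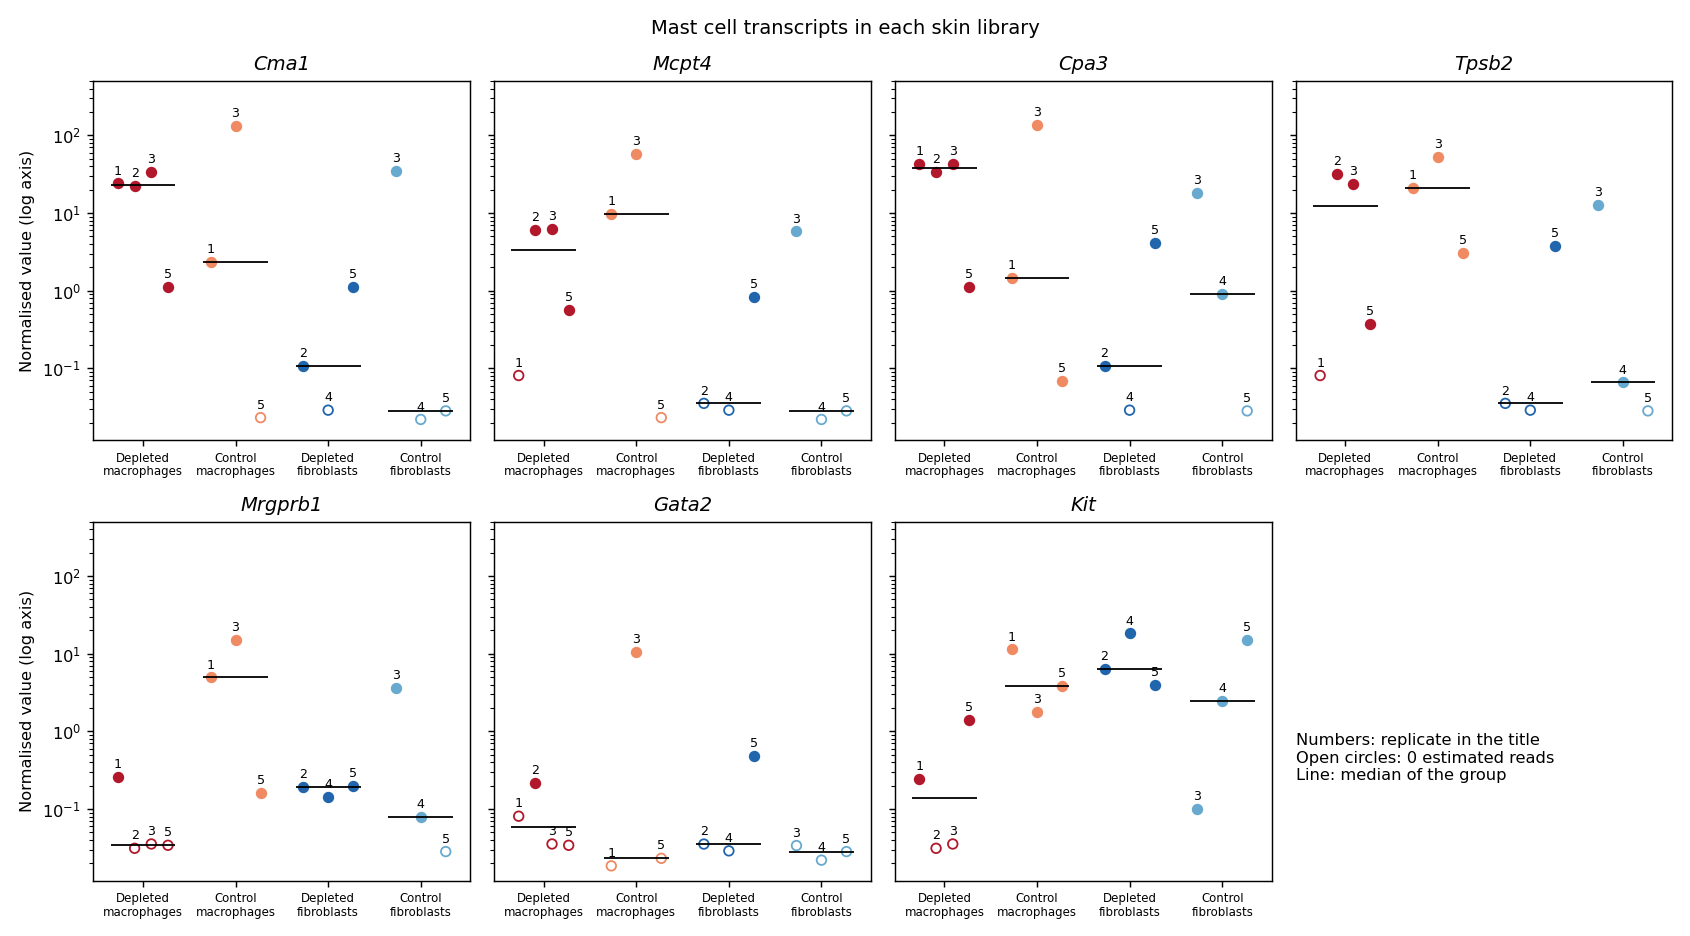
Normalised value (log axis) of each of the 7 transcripts in the 13 skin libraries, by group, with library numbers beside the points, open circles at 0 estimated reads and a line at each group's median. Control macrophage library 3 is the highest point for 6 of the 7 genes, and Kit is highest in depleted fibroblast library 4 at 18.3 units.

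Fibroblast libraries held the same transcripts in few samples. Cma1 had 0.106 units, 0 reads and 1.1 units in depleted fibroblast libraries 2, 4 and 5, against 34.6 units in control fibroblast library 3 and 0 reads in control libraries 4 and 5. Cpa3 had 0.106 units, 0 reads and 4.10 units in the depleted libraries and 18.1, 0.902 units and 0 reads in the control libraries 3, 4 and 5. Mcpt4 had 0 reads, 0 reads and 0.821 units in the depleted libraries, and 5.80 units and 0 reads in both others among the controls. Tpsb2 had 0 reads, 0 reads and 3.76 units in the depleted libraries and 12.7, 0.0660 units and 0 reads in the controls. The 4 proteases were thus concentrated in control fibroblast library 3 and, at lower values, in depleted fibroblast library 5, and the depleted and control groups overlapped for each of them. For Cma1 the depleted group averaged 0.413 ± 0.600 units and the control group 11.6 ± 20.0 units (SD, n = 3 each), so the spread within the control group was larger than the difference.

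Per kilobase of the longest coding transcript, which allows genes to be compared within a library, the order of levels in control macrophage library 3 was Cma1 at 121 units per kb, Cpa3 at 93.4, Mcpt4 at 52.2, Tpsb2 at 41.2, Mrgprb1 at 3.63, Gata2 at 2.94 and Kit at 0.338. In depleted macrophage library 3 it was Cma1 at 31.3 units per kb, Cpa3 at 29.5, Tpsb2 at 18.6 and Mcpt4 at 5.68, with Mrgprb1, Gata2 and Kit at 0 reads. In depleted library 2 Tpsb2 led with 24.8 units per kb, ahead of Cpa3 at 23.6, Cma1 at 20.6 and Mcpt4 at 5.44. Cma1, Cpa3 and Tpsb2 were within 1 order of magnitude of each other in these 3 libraries, whereas Mcpt4 was below them in the depleted ones and above Tpsb2 in the control one.

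The make-up of the protease reads was examined as shares of the estimated reads of Cma1, Cpa3, Mcpt4 and Tpsb2, in the 9 skin libraries with at least 40 such reads. Exact Clopper-Pearson 95% intervals treat each read as a separate draw and do not cover the spread between samples. The reads come from an amplifying kit and carry no molecular identifiers. Copies of 1 molecule can therefore count more than once, and the intervals can be too narrow even for counting error. Mcpt4 made up 6.35% (5.18 to 7.70%) of 1511 reads in depleted macrophage library 2 and 5.85% (4.72 to 7.16%) of 1505 reads in depleted library 3. In control macrophage library 3 it made up 15.3% (14.4 to 16.2%) of 6301 reads. Depleted library 5 held 45 protease reads, with a Mcpt4 share of 17.8% (8.0 to 32.1%), an interval that holds the share of control library 3. In depleted library 1 Mcpt4 was 0 of 413 reads (0 to 0.889%).

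Cma1 shares were closer together, at 35.8% (31.2 to 40.7%) in depleted macrophage library 1, 23.8% (21.6 to 26.0%) in library 2, 31.8% (29.5 to 34.3%) in library 3 and 35.6% (21.9 to 51.2%) in library 5. The share in control macrophage library 3 was 35% (33.8 to 36.2%), within the range of the depleted libraries. In control fibroblast library 3, by contrast, Cma1 made up 48.7% (45.6 to 51.7%) of 1048 reads and Cpa3 25.4% (22.8 to 28.1%), against 35.7% (34.6 to 36.9%) for Cpa3 in control macrophage library 3. The libraries labelled control macrophages 1 and 5 stood apart: Tpsb2 was 61.3% (58.0 to 64.4%) of 929 reads in the first and 98.5% (with a lower bound of 92.0%) of 67 reads in the second. Cma1 and Cpa3 together, which made up the greater part in control library 3, were 6.67% and 4.20% of the reads in the library labelled control macrophages 1.

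**Figure D2:**
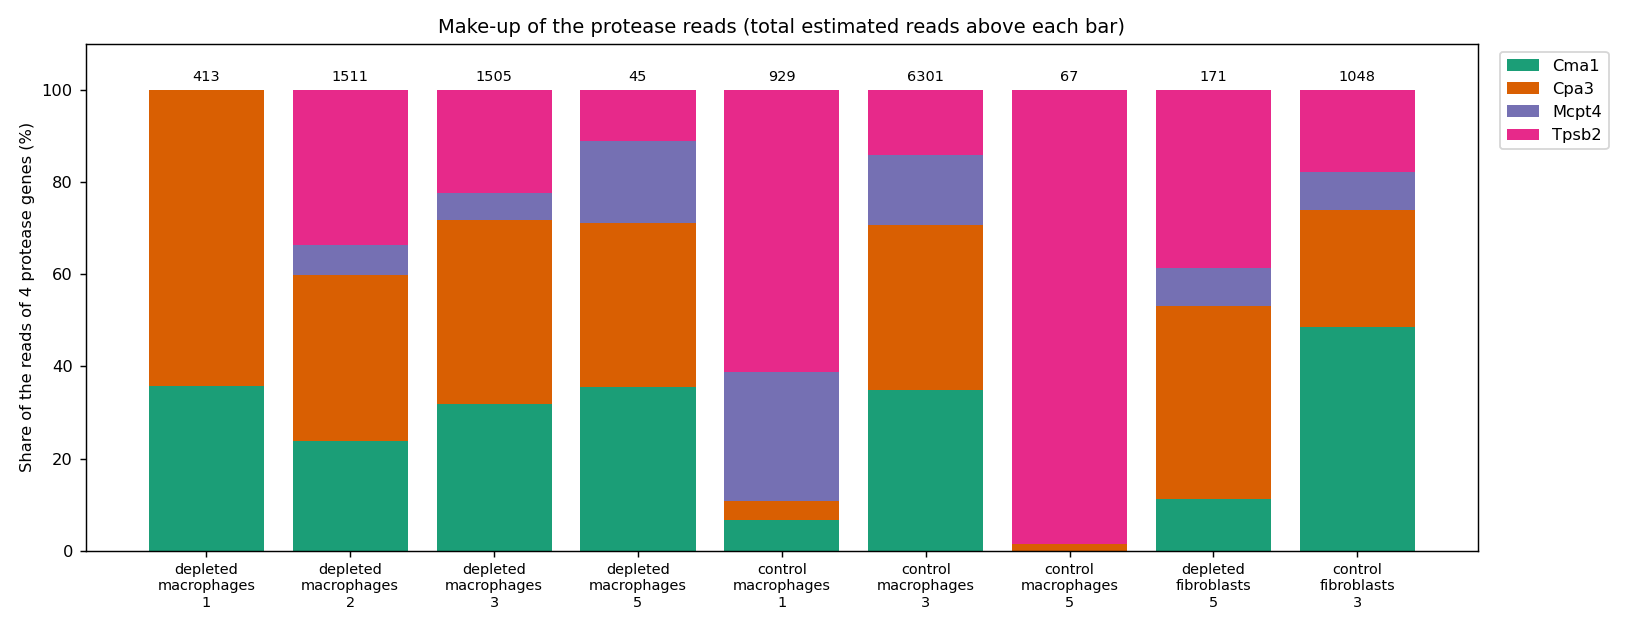
Share of the estimated reads of Cma1, Cpa3, Mcpt4 and Tpsb2 in each of the 9 skin libraries with at least 40 such reads, with the total above each bar. Cma1 and Cpa3 make up most of the reads in the 4 depleted macrophage libraries and in both control libraries numbered 3, whereas Tpsb2 leads with 61.3% and 98.5% in the libraries labelled control macrophages 1 and 5.

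The receptor gene Mrgprb1 had 1.12 reads (0.262 units) in depleted macrophage library 1 and 0 reads in depleted libraries 2, 3 and 5, where 3 reads would be 0.187, 0.213 and 0.205 units. Control macrophage library 3 had 15.2 units from 252 reads, and the libraries labelled control macrophages 1 and 5 had 4.96 and 0.163 units. The value of the library labelled control macrophages 5 came from 3.01 reads, and like that of depleted library 1 it is near the limit that 0 reads allow. In fibroblasts Mrgprb1 had 0.191, 0.144 and 0.198 units in depleted libraries 2, 4 and 5, each from 3 reads or fewer, and 3.63, 0.0787 units and 0 reads in control libraries 3, 4 and 5. Depleted macrophage libraries 2 and 3 held 1511 and 1505 protease reads with no Mrgprb1 read, while control fibroblast library 3 held 1048 protease reads with 53.1 estimated reads of Mrgprb1.

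Gata2 was detected in few libraries. It had 0, 3, 0 and 0 reads in depleted macrophage libraries 1, 2, 3 and 5, and 175 reads (10.5 units) in control macrophage library 3. In both libraries labelled control macrophages 1 and 5 it had 0 reads. Among fibroblasts it had 0, 0 and 8 reads (0.481 units) in depleted libraries 2, 4 and 5 and 0 reads in all 3 control libraries. Control fibroblast library 3, with its 1048 protease reads, thus had 0 reads of Gata2, which allows up to 0.203 units. Gata2 is used by other blood lineages and by endothelial cells as well. Together 5 endothelial genes summed to 23.0 to 43.9 units in the depleted macrophage libraries and to 19.8 in control library 3. In control library 3 Vwf had 15.3 units and Pecam1 4.14, while Tek and Cldn5 had 0 reads. In depleted library 1 Vwf had 26.1 units and Pecam1 0 reads. The part of endothelial cells in the Gata2 values was not tested.

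Kit, the stem cell factor receptor by which mast cells are usually sorted, did not share the order of the proteases. It had 0.243 units (1 read), 0 reads, 0 reads and 1.40 units (20 reads) in depleted macrophage libraries 1, 2, 3 and 5, against 1.77 units (29.0 reads) in control macrophage library 3 and 11.3 and 3.88 units in the libraries labelled control macrophages 1 and 5. In fibroblasts it had 6.39, 18.3 and 3.93 units in depleted libraries 2, 4 and 5 and 0.102, 2.44 and 15.1 units in control libraries 3, 4 and 5. Of the 6 fibroblast libraries, 5 lay above every depleted macrophage library, depleted and control fibroblasts overlapped, and the lowest fibroblast value was that of the library richest in proteases. Depleted fibroblast library 4 held 315 reads of Kit and 0 protease reads, and control fibroblast library 3 held 1 read of Kit and 1048 protease reads. Melanocytes also express Kit, and 2 melanocyte genes were measured, Dct and Mlana. They summed to 0.116 units in depleted fibroblast library 4, the highest for Kit. The sum was 0.812 to 34.9 units in the depleted macrophage libraries and 16.6 in control fibroblast library 3. These 2 genes did not go together. Depleted macrophage library 1 had 34.8 units of Dct and 0 reads of Mlana. Control fibroblast library 3 had 16.5 units of Mlana and 1 read of Dct. The part of melanocytes in the Kit values was not tested.

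The stem cell factor gene Kitl, which encodes the ligand of Kit, was a fibroblast transcript here. It had 0.404, 1.97, 9.20 and 1.26 units in depleted macrophage libraries 1, 2, 3 and 5 and 81.3, 60.2 and 51.4 units in depleted fibroblast libraries 2, 4 and 5, and the groups did not overlap. Over the 12079 genes tested between depleted macrophages and depleted fibroblasts, Kitl was lower in macrophages by limma with a log2 difference of -4.36 ± 0.78 (SE) and an adjusted p of 0.00246. The background of that comparison was 11.4% of genes called higher in macrophages and 12.7% called lower. In fibroblasts Kitl had 81.3, 60.2 and 51.4 units in depleted libraries and 117, 88.9 and 84.2 units in control libraries 3, 4 and 5. Each depleted fibroblast library was below each control one, but the share of all genes that separate in this way was not counted. The log2 difference was -0.59 ± 0.34 (SE), and limma did not call it (adjusted p = 0.955).

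**Figure D3:**
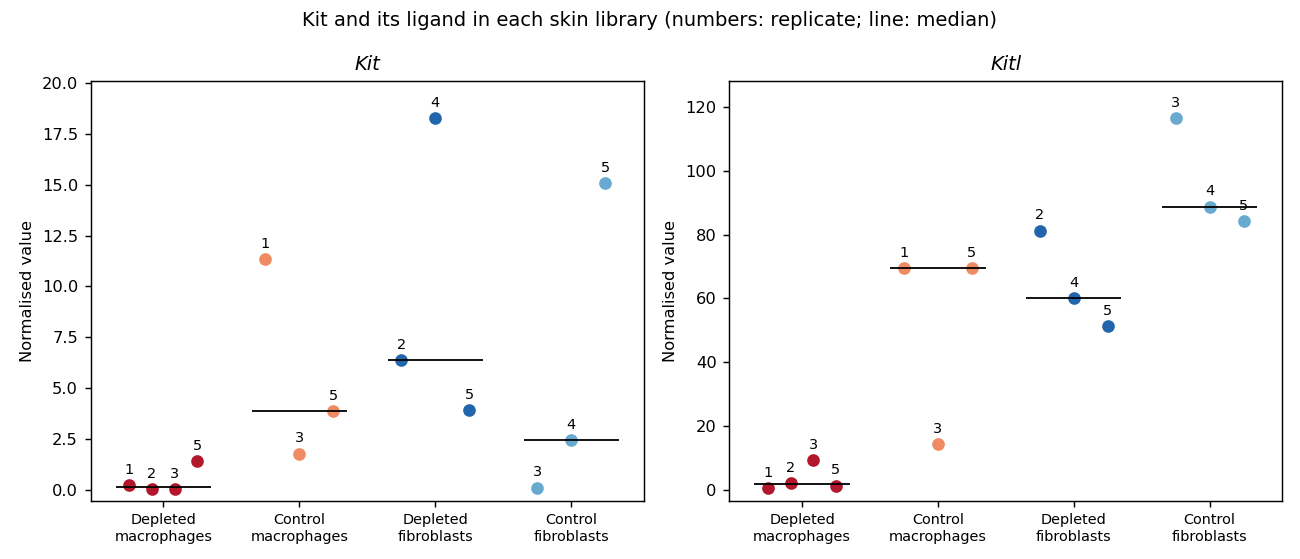
Normalised value of Kit and of its ligand gene Kitl in the 13 skin libraries, by group, with library numbers and a line at each group's median. Kit is spread from 0.102 to 18.3 units over the fibroblast libraries, while Kitl lies at 9.20 units or below in depleted macrophages and between 51.4 and 117 units in fibroblasts.

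The libraries numbered 3 carried most of these transcripts. Control macrophage library 3 was the highest of the 13 skin libraries for 6 of the 7 members, where 7.67% of all genes in the skin table have it as their highest. It was at least 2-fold above every depleted macrophage library for 5 of the 7, against 5.56% of all genes. Control fibroblast library 3 was at least 2-fold above every other fibroblast library for 5 of the 7, against 6.07% of all genes. Mcpt4, Cma1, Cpa3 and Mrgprb1 met both 2-fold conditions, as did 84 genes of the table or 0.663%. The members were chosen on these libraries, so the counts describe them and support nothing further. The labels do not say whether the macrophage and fibroblast libraries of 1 number share a mouse.

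All 4 haemoglobin genes of the skin table, which mark red blood cells, were among those 84 genes, an observation made after the values were seen. Their summed value was 0.647, 117, 12.1 and 0.888 units in depleted macrophage libraries 1, 2, 3 and 5, against 345 in control macrophage library 3 and 2.75 and 1.58 in control libraries 1 and 5. In fibroblasts it was 1.3, 19.3 and 2.66 units in depleted libraries 2, 4 and 5, against 98.8, 11.3 and 2.16 in control libraries 3, 4 and 5. Haemoglobin transcripts were thus highest in control library 3 of each sort, as the proteases were, although depleted macrophage library 1 held 67.7 units of the 7 members with 0.647 units of haemoglobin. The part of red cell RNA in the result was not tested.

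Transcripts of other cells that the macrophage gate should not hold were set beside the members. The 7 members summed to 67.7, 94.9, 107 and 4.67 units in depleted macrophage libraries 1, 2, 3 and 5 and to 406 in control library 3. A list of 7 keratinocyte genes, led by Krt14, Krt15 and Krt5, summed to 2549, 3420, 3641 and 1400 units in the depleted libraries and to 6395 in control library 3, which is the same order of libraries. Within this list Krt5 and Krt14 had that order. Krt15, Krt1 and Dsp were highest in control library 3, with other orders of the depleted libraries. Epcam had 104, 101, 92.9 and 28.8 units in the depleted libraries and 62.6 in control library 3. Krt10 had 60.6, 146, 275 and 85.1 units in the depleted libraries and 245 in control library 3. A list of 10 fibroblast genes summed to 879, 650, 1290 and 241 units in the depleted libraries and 2030 in control library 3. Depleted library 5 was thus the lowest and control library 3 the highest of these 5 for the members, the keratinocyte list and the fibroblast list. Control library 3 was above every depleted macrophage library for 24.5% of all genes in the skin table, so that place is common. A list of 7 T cell and lymphoid genes summed to 291, 260, 257 and 137 units in the depleted libraries and 434 in control library 3. Its genes did not share 1 order either. Cd3e had 64.8, 26.7, 34.4 and 8.78 units in the depleted libraries and 76.2 in control library 3. Cd3g had 54.4, 49.5, 30.7 and 9.92 units in the depleted libraries and 80.8 in control library 3. Both were thus lowest in depleted library 5 and highest in control library 3. Cd3d and Cd247 were highest in depleted libraries 3 and 2, at 11.2 and 16.5 units. Rora, which had 183 to 336 units in the fibroblast libraries, had 5.74, 46.3, 47.7 and 21.0 units in the depleted macrophage libraries and 139 in control library 3. Il7r, an interleukin receptor of lymphoid cells, had 154, 66.7, 94.6 and 69.0 units in the depleted libraries and its lowest value, 52.6, in control library 3. In depleted library 1 Krt1, Fbln1 and Cd247 of these lists had 0 reads, and no other gene of the 3 lists did in these 5 libraries. Their part in the difference between libraries was not tested.

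Macrophage transcripts did not follow that order. The list of 12 macrophage genes summed to 9052, 9177, 11412 and 10591 units in depleted macrophage libraries 1, 2, 3 and 5, against 10882 in control library 3, so library 5 had a macrophage level like the rest with few mast cell transcripts. Of the 4 eosinophil genes measured, which are led by the Ear2 transcript, the sum was 736, 859, 1202 and 342 units in the depleted libraries and 590 in control library 3. Ear2 alone was 736, 811, 1161 and 331 units in the depleted libraries and 584 in control library 3. The sum therefore follows Ear2 and not the list as a whole. Siglecf had 0 reads, 7.91, 14.9 and 3.18 units in the depleted libraries, and Prg2 0 reads, 12.6, 11.9 and 1.33 units. Both had 0 reads in control library 3. Ccr3 had 0 reads, 27.5, 14.0 and 6.53 units in the depleted libraries and 6.28 in control library 3. The basophil genes Mcpt8 and Prss34 were not analysed here, and Cd200r3, carried by basophils and mast cells, had 44.9, 19.8, 17.7 and 11.3 units in the depleted libraries against 27 in control library 3. Of 5 neutrophil genes the sum was 165, 70.0, 47.9 and 127 units in the depleted libraries and 101 in control library 3, which lay inside their range. Within that list S100a8 had 7.04, 8.91, 9.84 and 14.6 units in the depleted libraries and 36.4 in control library 3, while Mmp9 went the other way, with 102, 30.3, 31.8 and 66.0 units in the depleted libraries and 23.7 in control library 3. In the fibroblast libraries the macrophage list summed to 19.0 to 44.5 units, and control fibroblast library 3, with the most protease reads, was at 34.1. The keratinocyte list there ranged over 1065 to 13303 units with 2579 in control fibroblast library 3, so it did not peak with the proteases in fibroblasts.

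**Figure D4:**
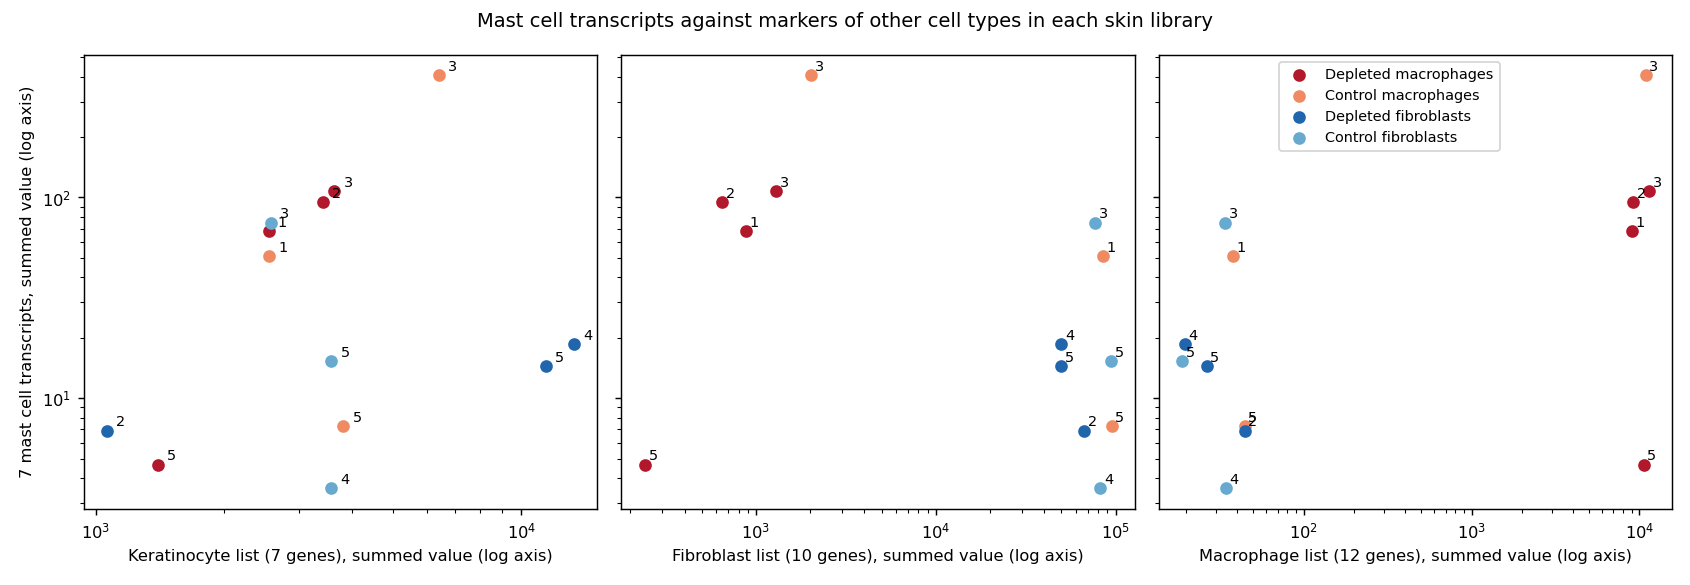
Summed value of the 7 mast cell transcripts (log axis) against the summed values of 7 keratinocyte, 10 fibroblast and 12 macrophage genes (log axes) in each of the 13 skin libraries. Among the 5 libraries with a macrophage profile the members' sum spans 4.67 to 406 units, with the same order as the keratinocyte sum, while the macrophage sum stays between 9052 and 11412 units.

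A longer list of 33 mast cell genes outside the members was set beside these values, of which 16 could be analysed in skin. The Fc epsilon receptor genes Ms4a2 and Fcer1a, the tryptase gene Tpsab1 and the receptor gene Mrgprb2 are among those not analysed here. Of the 16, 1 was at least 2-fold above every depleted macrophage library in control macrophage library 3, a share near the 5.56% of all genes. That gene was Rab27b, a granule transport gene, with 0.50, 0.656, 0.0355 and 2.02 units in the depleted libraries and 8.01 in control library 3. Hpgds, the haematopoietic prostaglandin D synthase, had its highest value in control library 3, at 126 units, against 48.1, 111, 123 and 72.6 units in the depleted libraries. None of the 16 met the fibroblast condition, which 6.07% of all genes met. Hdc, the enzyme that makes histamine, had 0 reads, 14.7, 3.02 and 6.39 units in the depleted libraries and 5.45 in control library 3, which lay inside their range. Slc18a2, the vesicular amine transporter that loads histamine into granules, had 0 reads, 6.16, 1.53 and 7.55 units in the depleted libraries and 0 reads in control library 3. The histamine genes therefore did not share the order of the proteases.

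Between depleted macrophages and depleted fibroblasts, where each library had the profile of its label, 6 of the 15 other mast cell genes tested were called higher and 1 was called lower (limma, adjusted p below 0.05), where 11.4% of all genes tested were called higher and 12.7% lower. The list's median log2 difference was 1.11, against -0.11 over all genes tested. The genes called higher include Alox5ap (9.01 ± 0.37 on the log2 scale, SE, adjusted p = 1.04e-07), Alox5 (7.22 ± 0.50, adjusted p = 4.22e-06) and Ltc4s (4.73 ± 0.89, adjusted p = 0.00323), which act in turn in leukotriene synthesis, with Srgn (5.49 ± 0.36, adjusted p = 2.73e-06), the granule proteoglycan core, and Hpgds (5.51 ± 0.71, adjusted p = 0.000328). Adora3, the adenosine A3 receptor, was the other (3.43 ± 0.90, adjusted p = 0.0194), and its call was lost without any 1 of depleted fibroblast libraries 4 and 5 or depleted macrophage libraries 2 and 3. Maob, a mitochondrial amine oxidase, was lower in macrophages at -4.60 ± 0.72 (adjusted p = 0.00111). Macrophages also express these 6 genes, and depleted macrophage library 5, with 1.13 units of Cma1, had 1502 units of Alox5ap and 193 of Alox5.

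Of 24 genes of the Kit signalling pathway, 7 were called higher in depleted macrophages than in depleted fibroblasts (background 11.4%) and 3 lower, a share near the background of 12.7%, with a median log2 difference of 0.30. Lyn, a Src family kinase (6.05 ± 0.56, adjusted p = 3.51e-05), Ptpn6, an inhibitory phosphatase (5.93 ± 0.74, adjusted p = 0.000273), and Pik3cd, a leukocyte kinase subunit (4.04 ± 0.70, adjusted p = 0.00199), were higher, and Kitl, Src (-2.75 ± 0.71, adjusted p = 0.0176) and Pik3r1 (-1.71 ± 0.32, adjusted p = 0.00329) were lower. Of 16 genes of Fc epsilon receptor signalling, 11 were called higher and 1 lower, against the same background, with a median log2 difference of 5.77. Fcer1g, the signalling chain shared by Fc receptors, was 9.65 ± 0.34 (adjusted p = 3.67e-08) and the kinase gene Syk 5.61 ± 0.56 (adjusted p = 6.33e-05), while Plcg1, a phospholipase, was lower at -3.15 ± 0.81 (adjusted p = 0.0175), a call lost without depleted fibroblast library 5 and with a smaller pseudocount. Macrophages use Fcer1g and Syk with other Fc receptors, so these counts are not specific to mast cells.

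Neutrophil loss and the members were compared over all genes within each sort. Between depleted and control skin macrophages as labelled, 0 of 11716 genes were called by limma (0%), with 2458 at an unadjusted p below 0.05. With control library 3 as the 1 control library, 0 of 12028 were called (0%) and 834 were at an unadjusted p below 0.05, the spread then being taken from the depleted libraries alone. Between depleted and control skin fibroblasts 0 of 11780 genes were called (0%), with 283 at an unadjusted p below 0.05. Among those tested in fibroblasts, 0 of 10 other mast cell genes, 0 of 23 Kit pathway genes and 0 of 9 Fc epsilon pathway genes were called. Kit and Cpa3 were the 2 members that passed the filter in fibroblasts. Their log2 differences, depleted minus control, were 1.18 and -0.89, given as a description, and that of Cpa3 turned to 0.36 without control fibroblast library 3. Without control macrophage library 3, when both remaining controls had the fibroblast profile, 2908 genes were called between the macrophage groups, and without depleted fibroblast library 2, 16 genes between the fibroblast groups.

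In lung, Cpa3 was near the limit of detection. It had 0 reads in all 3 depleted macrophage libraries, and 0, 2 and 0 reads in control macrophage libraries 1, 2 and 3. In fibroblasts it had 10.2, 13.6 and 12.1 units in depleted libraries 1, 2 and 3, from 1, 3 and 3 reads, and 36.5, 19.7 and 5.35 units in control libraries 1, 2 and 3, from 6.18, 2.91 and 1 estimated reads. The groups overlapped in fibroblasts. Limma gave a log2 difference, depleted minus control, of -0.24 ± 0.47 (SE) in macrophages (adjusted p = 0.923) and -0.40 ± 0.79 in fibroblasts (adjusted p = 0.988), so a change was not detectable at this depth. The difference turned to 0.17 in macrophages without control library 2 and to 0.17 in fibroblasts without control library 1. The 2 tables were scaled separately, so lung and skin units cannot be compared.

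Among the wider mast cell list in lung macrophages, 1 of 15 genes was called, where 0.0674% of the 11867 genes tested were called higher and 0.43% lower (0.497% in all). That gene, the histamine enzyme Hdc, had 52.3, 21.7 and 38.3 units in depleted macrophage libraries 1, 2 and 3, against 120, 298 and 258 units in control libraries 1, 2 and 3. The groups did not overlap, and Hdc fell in depleted macrophages by a log2 difference of -2.54 ± 0.39 (SE, limma adjusted p = 5.27e-05). The call was lost without control library 2 (-2.29, adjusted p = 0.190) or control library 3 (-2.39, adjusted p = 0.155), with its direction kept. Hdc is also made by neutrophils and basophils, and 9 neutrophil genes summed to 1886, 1945 and 2280 units in depleted libraries 1, 2 and 3, against 10634, 8731 and 18506 units in control libraries 1, 2 and 3. Of those 9 genes, 6 were called lower. Their part in the fall of Hdc was not tested. The number of genes called in lung macrophages, 59, was 11 and 12 without control libraries 2 and 3. In lung macrophages 0 of 22 Kit pathway genes and 0 of 15 Fc epsilon pathway genes were called.

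In lung fibroblasts 0 of 15 other mast cell genes, 0 of 22 Kit pathway genes and 0 of 15 Fc epsilon pathway genes were called, where 0.00843% of genes, which is 1 of 11867, were called by limma and 600 were at an unadjusted p below 0.05. The number of genes called reached 7 without depleted library 2. Hdc had 0, 1 and 2 reads in depleted fibroblast libraries 1, 2 and 3 and 0 reads in the control ones.

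The genes whose pattern was most like that of the members were ranked by Pearson's correlation with the mean of the 7 centred log2 values over the 5 skin macrophage libraries with a macrophage profile, among 7998 genes with a mean of at least 10 units. Among the first 15 were Dapl1, Ndufaf8, Tmem33, Ly6a, Rab11fip5, Cycs, Rps21, Agpat2, Rpl36a, mt-Nd3, Tctex1d2, Jmy, Apoc1 and Mib1, with r of 0.998 for the first and 0.982 for the last. Dapl1 had 19.9, 35.2, 41.2 and 11.4 units in depleted libraries 1, 2, 3 and 5 and 135 in control library 3. All 15 were highest in control library 3 of the 5 libraries, where 24.5% of all genes in the skin table were. Of the 15, 0 met the 2-fold condition in control fibroblast library 3, and 2 stayed in the list over the 4 depleted libraries alone. The likeness therefore rests on 1 control library and 5 points that share their preparation. The members' own correlation with their mean was 0.95 for Mcpt4, 0.90 for Cma1, 0.88 for Gata2, 0.86 for Mrgprb1, 0.83 for Tpsb2 and Cpa3, and 0.25 for Kit. Each gene is itself part of that mean and was chosen on these libraries, so these values are raised by construction.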

How the data were processed

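RNA was sequenced as 61-base single-end reads from sorted macrophages and fibroblasts of skin and lung, with an amplifying single-cell kit, per the labels' protocols. CASAVA 1.8, cutadapt 1.7.1, RSEM 1.7.1 and limma 3.46 with mm10 are named in the submitters' processing notes, with no role or order. Normalised values were deposited by the authors in 1 table per organ and are treated here as a linear signal. Within a library this signal equals estimated reads plus 0.5, times a constant, so reads were recovered from it. In skin 27.4 to 58.0% of values were whole reads within 0.01, so they are estimates and no count model was used.

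Groups came from the labels. limma 3.58.1 in R 4.3.3 (lmFit, eBayes with trend) was run on log2 of the signal plus 1 ppm of the mean library total (1.001 in skin, 1.04 in lung), so fold changes of low genes are understated. Genes needed 1 ppm in as many libraries as the smaller group, and calls were made at a Benjamini-Hochberg adjusted p below 0.05 over all genes. The fit was tested on simulated data. All 7 members are named, with up to 10 genes per list by lowest p; predicted genes were passed over, and a gene among those most like the members is not reported here. Members and lists were chosen with earlier results of these data known. Alternatives covered the pseudocount, the filter, quantile normalisation, a replicate block and leaving out each library.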

Additional observations from a re-analysis of the deposited data

Results flagged for a closer look

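Among the 7 members' values in the 4 depleted skin macrophage libraries, 2 had 1 library far from the other 3 by Dixon's criterion, out of 7 groups examined. The usual rate by chance, about 1 in 20 such groups, does not apply to these 2, whose libraries were mostly at 0 or 1 read. Mrgprb1 had 0.2621 units in depleted library 1, from 1.12 estimated reads, with a gap of 0.981 of the range and 0 reads in the other 3 libraries. This is below the 3 reads that 0 reads allow, and library 1 was the shallowest, so its units per read were the largest. Kit had 1.401 units in depleted library 5, from 20 estimated reads, with a gap of 0.846 of the range and 1, 0 and 0 reads in depleted libraries 1, 2 and 3. That library was also the lowest of the 4 for the summed members.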

How the results depend on the processing

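Counts of genes called depended on single libraries in 4 of the 5 comparisons. Skin macrophages, depleted against control as labelled, gave 0 to 2908 genes when each library was left out, the 2908 arising without control library 3, when both remaining controls had the fibroblast profile. Skin fibroblasts gave 0 to 16, with 16 without depleted library 2; lung macrophages 11 to 70, with 11 and 12 without control libraries 2 and 3; lung fibroblasts 0 to 7. Quantile normalisation gave 27 genes in lung macrophages and 0 in lung fibroblasts. With the replicate number as a block, skin fibroblasts gave 84 genes and lung fibroblasts 4. In skin fibroblasts only numbers 4 and 5 occur in both groups, so differences with the block rest on those libraries alone. Deviations of same-numbered libraries from their group means had correlations of -0.05 to 0.15. Most of these pairs joined depleted with control libraries, which differ in genotype and cannot share a mouse. Depleted macrophages and fibroblasts, which could, gave -0.02 for number 2 and 0.15 for number 5. The control macrophage and fibroblast libraries numbered 3 were not compared in this way. The labels do not state what the numbers mark, so they are not taken as pairs. The cause of the differences in counts was not tested. The log2 difference of Cpa3 in skin fibroblasts turned to 0.71 with the block and 0.36 without control library 3, in lung macrophages to 0.17 without control library 2 and in lung fibroblasts to 0.17 without control library 1; none was called in any setting, and without each library in turn they ranged from -1.74 to 0.36, from -0.52 to 0.17 and from -1.11 to 0.17. Of the 15 genes most like the members, 2 were shared over the depleted libraries alone. Other counts for these comparisons, 40 in all, stayed within 1.5 times. Members under the filter in the main setting have no alternative value. Single reads limit Mrgprb1, Gata2 and Kit in macrophages and Cpa3 in lung.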
